A study of Danio rerio with 18 samples.

Results

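The NMLF, the midbrain nucleus of the medial longitudinal fascicle, was compared in gene expression between zebrafish (Danio rerio) with a transected spinal cord and sham-operated zebrafish. The early effect of injury, described here, pools 4 h and 12 h after surgery. The comparison uses 12 of the 18 arrays of the study, chosen by their labels: 3 transected and 3 sham arrays at 4 h, and 3 transected and 3 sham arrays at 12 h. Tissue of the NMLF region was cut from the brain by laser capture, its RNA was amplified, and each sample was hybridised to 1 Affymetrix array. All fish were kept at 28 °C on a cycle of 14 h of light and 10 h of dark. Nothing in the labels gives the strain, age or sex of the fish, the level of the cut or the details of the sham operation. The labels do not say whether samples came from separate fish or from pools. Every p-value therefore sets a difference only against the spread among these samples, which may be partly technical. In dissected tissue, fewer cells of a type and less RNA per cell cannot be told apart.

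The NMLF is a group of large midbrain neurons whose axons descend through the spinal cord and take part in the control of swimming. After the cord of an adult zebrafish is cut, axons of this group can grow back through the lesion. Cutting an axon sends signals back to the cell body, where transcription factors such as Jun and Atf3 are typically induced first, together with cytokine signalling through Stat3 and its inhibitor Socs3. Surgery and handling can raise stress hormones in operated fish of either kind, so each time has its own sham group. The question asked here was which acute changes are shared by both early times.

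Signals were normalized to a common distribution over the 12 arrays, set to at least 16 and put on a log2 scale. Of 15502 probe sets other than controls, 8824 with a mean signal above 32 were tested, and they stand for 5753 of the 8793 genes named on the array. Before this step the mean signal, trimmed by 2% at each end, was 150.0 on 10 of the 12 arrays, and 92.6 and 100.4 on replicate 3 at 4 h (transected and sham). Arrays of a group correlated at 0.936 to 0.983, and arrays of different groups at 0.927 to 0.984, nearly the same range. The lowest value within a group was between sham replicates 1 and 2 at 4 h. On the first principal component, which held 28.0% of the variance, replicate 1 at 4 h stood apart from the others (scores of -44.4 in the transected and -35.9 in the sham array). On the second, with 23.3%, sham replicate 2 at 4 h had the highest score, 42.6. The GAPDH controls, a 3′ and a 5′ probe set whose ratio is greater in shortened RNA, gave ratios with geometric means of 2.14 in transected and 1.64 in sham arrays at 4 h, without overlap, and of 4.13 in transected and 4.30 in sham arrays at 12 h. The pooled log2 difference of the ratio was 0.16 (exact two-sided permutation test within times, p = 0.355, smallest possible 0.005), or 0.28 without sham replicate 3 at 12 h (p = 0.025). Its part in the gene results was not tested.

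All 16 neuron markers on the array passed the filter, and none was at the floor on all 12 arrays. Their summed signal lay between 25481 and 39004 in transected and between 33082 and 40940 in sham arrays at 4 h, and between 34931 and 36823 in transected and between 34199 and 39904 in sham arrays at 12 h. Of the markers of other cells, 8 of 8 passed for oligodendrocytes, 14 of 15 for astroglia, 23 of 30 for microglia and leukocytes, and 12 of 18 for red cells. The microglia and leukocyte markers under the filter included csf1ra, ptprc and marco, and 1 was at the floor on all 12 arrays.

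No probe set passed the test for a shared early effect. Limma called 0 of 8824 (0%) at a Benjamini-Hochberg adjusted p under 0.05, the smallest adjusted p was 0.999, and 332 probe sets (3.76%) were at an unadjusted p under 0.05, 184 higher (2.09%) and 148 lower (1.68%). The differences at the single times gave 0 calls at 4 h (233 at an unadjusted p under 0.05, 2.64%) and 0 at 12 h (474, 5.37%). If no probe set differed, a fraction of about 0.05 would be expected at that unadjusted p. The test of whether the effect differs between the times also called 0 (356 at an unadjusted p under 0.05, 4.03%). At 4 h, where same-numbered transected and sham arrays deviated together, a fit with these pairs as a block also called 0. Of the 8824 probe sets, 499 were at an unadjusted p under 0.05 at 4 h in that fit, and 573 in its pooled effect. The transected array was the higher one in each of the 3 pairs at 4 h in 14.6% of the probe sets and the lower one in 13.2%. The pairs were taken from the deviations of these same arrays, so a count of pairs describes a gene and is no test of it. The median standard error of a pooled log2 difference was 0.193. Every gene below is therefore described by its values, and none of the differences in single genes passed the test. For the counts in gene lists below, 138 of the 5753 genes were higher and 80 lower at an unadjusted p under 0.05, each gene taken at its brightest probe set, and 2930 were higher and 2823 lower at any p. At the single times the genes leaned in opposite directions: 3164 of the 5753 were higher at 4 h (median 0.03) and 3180 were lower at 12 h (median -0.04).

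Across probe sets the estimated differences at 4 h and at 12 h were nearly uncorrelated. They had the same sign in 48.5% of the 8824 probe sets, 2025 of them higher and 2257 lower at both times, and their Pearson correlation across probe sets, which are not independent replicates, was -0.048. The transected and sham arrays of the 2 times are different samples, so this comparison shares no control. The median standard error of a log2 difference at a single time was 0.273. Estimates of that precision can be uncorrelated whether or not the effects are shared, so the correlation cannot decide this.

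**Figure D1:**
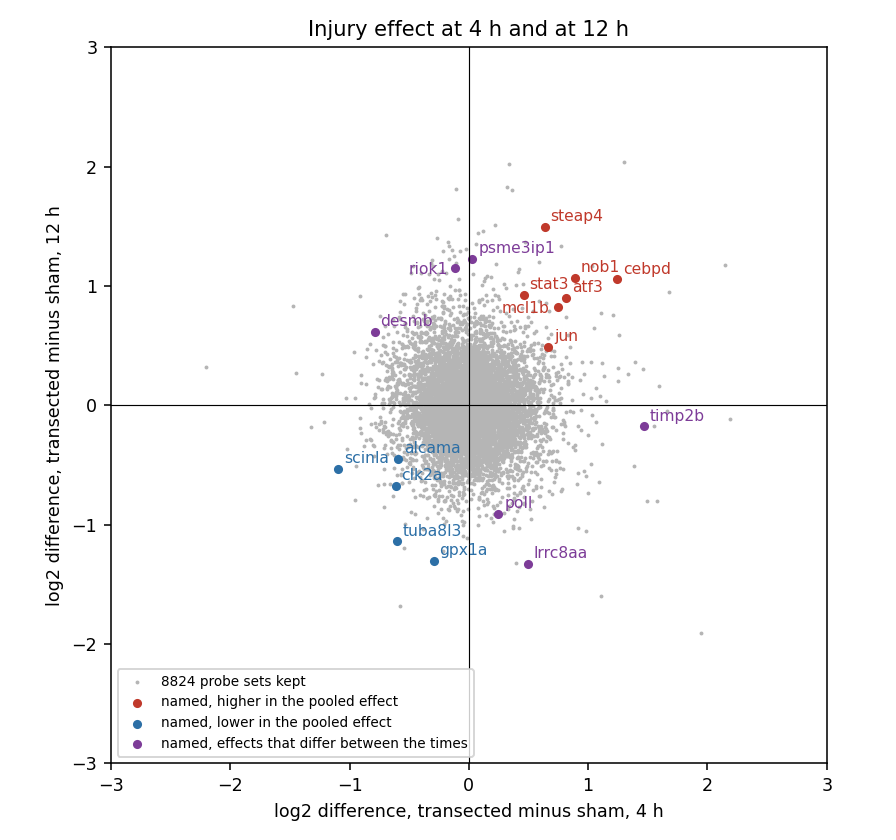
Log2 difference between transected and sham arrays at 4 h (horizontal axis) and at 12 h (vertical axis) for the 8824 probe sets tested, 1 grey point each, with genes described in the text in colour. The cloud has no slope (r = -0.048), and the named genes higher at both times, such as cebpd (1.24 at 4 h and 1.06 at 12 h), lie at the upper right edge.

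Full separation at both times was rare. In 33 probe sets (0.374%) the 3 transected arrays lay on one side of the 3 sham arrays at 4 h and on the same side at 12 h, 13 higher (0.147%) and 20 lower (0.227%), and 30 probe sets (0.34%) separated in opposite directions. Scaling each array to a common median instead left 18, of which 10 were higher and 8 lower. At the single times 524 probe sets (5.94%) separated at 4 h and 1147 (13%) at 12 h. Of the 33, 11 higher and 14 lower ones carry a single gene symbol.

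The largest separated difference toward higher signal was that of nob1, an endonuclease that matures the RNA of the small ribosomal subunit. One of its probe sets read 449.9, 331 and 661 in transected and 289, 185 and 289.6 in sham arrays at 4 h. At 12 h nob1 read 938, 630.4 and 749 in transected and 326, 581 and 252 in sham arrays. The lowest transected array stood above the highest sham array at each time, and the pooled log2 difference was 0.98 ± 0.24 (SE). A second nob1 probe set showed no such difference (-0.03 ± 0.15), and the first is of a class (x_at) whose probes can match other transcripts. For bzw1b, a regulator of translation, signals were 308, 222 and 264 in transected and 189.9, 51.3 and 104 in sham arrays at 4 h. At 12 h bzw1b read 89.6, 101 and 145 in transected and 83.6, 84.6 and 86.5 in sham arrays. At 4 h the lowest transected array, 222, was clear of the highest sham array, 189.9, while at 12 h the lowest transected array, 89.6, was only just above the highest sham array, 86.5. The receptor gene tgfbr2b, whose product binds TGF-beta, had 59.3, 70.28 and 64.5 in transected and 51.8, 58.2 and 49.4 in sham arrays at 4 h. At 12 h tgfbr2b read 123, 105 and 116 in transected and 70.13, 66.8 and 80.8 in sham arrays. Its separation was narrow at 4 h and wide at 12 h (log2 differences of 0.28 and 0.66).

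Other separated genes were higher by smaller amounts. They were cratb, a mitochondrial carnitine acetyltransferase (0.47 ± 0.14), pum3, an RNA-binding protein of the nucleolus (0.47 ± 0.16), rsl1d1, a nucleolar protein with a ribosomal L1 domain (0.46 ± 0.14), zdhhc6, a palmitoyltransferase (0.43 ± 0.18), nme7, a nucleoside diphosphate kinase family member (0.42 ± 0.17), hsd17b4, an enzyme of peroxisomal beta-oxidation (0.38 ± 0.13), and tfip11, a factor of spliceosome disassembly (0.33 ± 0.14). The smallest separated difference was that of rpl3, a protein of the large ribosomal subunit (0.16 ± 0.13). In rsl1d1 the transected arrays read 271, 261 and 263 at 4 h, against 205, 227 and 219 in sham arrays, and 399, 321 and 426 at 12 h, against 249, 216 and 276. The 3 transected arrays of rsl1d1 lay close together at 4 h and further apart at 12 h.

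Toward lower signal, clk2a, a kinase that phosphorylates splicing factors, had the smallest p of the named genes that were lower. It read 111, 100.1 and 89.7 in transected and 135, 156 and 169 in sham arrays at 4 h. At 12 h clk2a read 85.4, 99.3 and 115 in transected and 156, 131 and 194 in sham arrays. All 6 transected arrays lay below 6 of 6 sham arrays even across times, and the pooled log2 difference was -0.64 ± 0.15 (limma unadjusted p = 0.00095, adjusted p = 0.999). The cell adhesion gene alcama, whose product guides axons, had 185, 244 and 246 in transected and 285, 403 and 331 in sham arrays at 4 h. At 12 h alcama read 186, 175 and 188 in transected and 259.6, 245 and 245 in sham arrays. Its transected arrays were lower at both times (-0.52 ± 0.14), though its second probe set was lower at 4 h only (-0.60 at 4 h and 0.13 at 12 h). The corepressor nrip1b, which binds nuclear hormone receptors, read 99.3, 89.0 and 80.5 in transected and 101, 124 and 160.3 in sham arrays at 4 h. At 12 h nrip1b read 87.1, 80.7 and 115 in transected and 132, 133 and 175 in sham arrays. At 4 h its highest transected and lowest sham array were close together, 99.3 and 101.

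The splicing coactivator srrm1 was lower on 1 dim probe set (-0.61 ± 0.18), whereas its other 2 probe sets, both brighter, were at 0.07 ± 0.14 and 0.10 ± 0.15. The bright probe set of pyya, which encodes the peptide hormone PYY, read 4215, 4671 and 5016 in transected and 5201, 6388 and 6699 in sham arrays at 4 h. At 12 h pyya read 3363, 2165 and 3336 in transected and 4215, 4982 and 4256 in sham arrays. Its transected arrays were lower at both times (-0.39 at 4 h and -0.63 at 12 h), and a second probe set had -0.29 ± 0.24. The other separated genes were actr10, a dynactin subunit (-0.41 ± 0.14), elmo1, which activates Rac (-0.30 ± 0.14), gapvd1, a protein of endocytosis (-0.30 ± 0.14), and the genes zgc:110239 (-0.39 ± 0.14) and zgc:77880 (-0.28 ± 0.14). Differences from -0.27 to -0.23 belonged to grnb, of the progranulin family, dedd, which holds a death effector domain, spock3, an extracellular proteoglycan, and lrpprc, an RNA-binding protein of mitochondria, which were chosen for naming after their values were seen, as was rpl3.

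Among genes of smallest p that belong to no list, phf10, a subunit of a chromatin remodelling complex, read 52.2, 66.1 and 42.1 in transected and 42.3, 23.5 and 36.4 in sham arrays at 4 h. At 12 h phf10 read 62.5, 54.4 and 69.4 in transected and 45.1, 38.1 and 26.7 in sham arrays. It was separate at 12 h, and at 4 h the groups overlapped (0.73 ± 0.20). The neuronal calmodulin-binding gene nrgna, which encodes neurogranin, had 90.8, 80.6 and 97.3 in transected and 106, 62.4 and 71.0 in sham arrays at 4 h. At 12 h nrgna read 155, 176 and 134 in transected and 71.9, 74.5 and 89.3 in sham arrays. Its difference lay mostly at 12 h (0.20 at 4 h and 0.98 at 12 h), as did those of nop58, a core protein of small nucleolar particles (0.23 and 1.19), and prg4b, a secreted lubricating proteoglycan (0.42 and 1.14). The gene si:ch73-55i23.1, for which no role is given here, read 362, 134 and 278 in transected and 280.1, 539 and 297 in sham arrays at 4 h. At 12 h si:ch73-55i23.1 read 88.3, 119 and 83.0 in transected and 245, 237 and 497 in sham arrays. It had the largest lower difference of the named genes (-1.13 ± 0.28, and -0.87 ± 0.24 on a second probe set that may share its probes), separate at 12 h and overlapping at 4 h. The transected array was lower in 2 of 3 pairs at 4 h. Also lower were anapc4, of the anaphase-promoting complex (-0.58 ± 0.18, and -0.03 ± 0.21 on a second probe set), and si:ch211-272n13.3 (-0.52 ± 0.16, and 0.11 ± 0.29 on a second one).

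**Figure D2:**
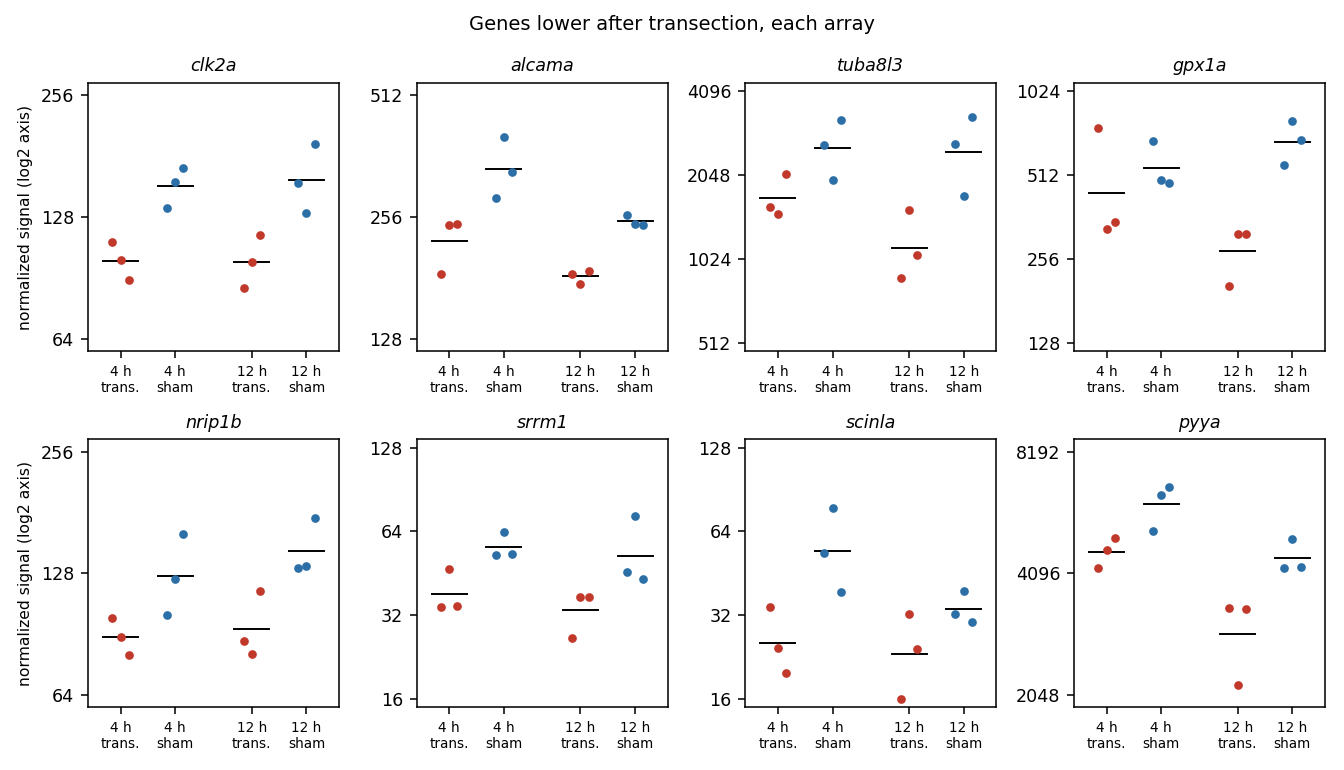
Normalized signal of 8 genes that were lower after transection, 1 point per array on a log2 axis, with transected (red) left of sham (blue) at each time and the geometric mean of 3 arrays as a line. In clk2a the 3 transected arrays at 4 h lie between 89.7 and 111 and the 3 sham arrays between 135 and 169.

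Among transcription factors induced by injury, 16 of 28 genes were higher and 12 lower, with a median pooled log2 difference of 0.06, against 0.0045 over the 5753 genes. The median was -0.01 without sham replicate 3 at 4 h. At an unadjusted p under 0.05 stood 3 higher and 1 lower member. At both times 12 of the 28 were higher and 9 lower, against 1397 and 1414 of the 5753 genes. The largest difference was that of cebpd, a factor of the acute phase response, which read 1799, 1284 and 1292 in transected and 932, 505 and 478 in sham arrays at 4 h. At 12 h cebpd read 1910.4, 942 and 1858 in transected and 323, 1049 and 1097 in sham arrays. At 4 h every transected array stood above every sham array, and at 12 h sham replicates 2 and 3 reached above transected replicate 2. The pooled difference was 1.15 ± 0.31 (limma unadjusted p = 0.0026).

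The gene atf3, a stress-induced factor of the ATF/CREB family and a common marker of neurons with a cut axon, had 108, 68.2 and 57.1 in transected and 60.9, 42.7 and 29.9 in sham arrays at 4 h. At 12 h atf3 read 117, 77.1 and 109 in transected and 26.3, 73.5 and 78.3 in sham arrays. Single sham arrays reached the range of the transected arrays at both times, though at 4 h each transected array was above the sham array of its number, and the difference was 0.86 ± 0.29, nearly equal at 4 h (0.81) and 12 h (0.90). For jun, a partner of Atf3 in AP-1 complexes, signals were 1534, 917 and 569 in transected and 891, 450.2 and 502 in sham arrays at 4 h. At 12 h jun read 972, 928 and 1042 in transected and 719, 703 and 670.1 in sham arrays. The groups overlapped at 4 h through transected replicate 3 and sham replicate 1, with each transected array above the sham array of its number, and were separate at 12 h (0.58 ± 0.23, and 0.42 ± 0.23 on a second probe set). Other members were junba at 0.52 ± 0.30, fosab at 0.51 ± 0.34, klf9 at 0.43 ± 0.27, cebpb at 0.33 ± 0.21 (0.79 at 4 h and -0.12 at 12 h), junbb at 0.22 ± 0.19 and egr1 at 0.08 ± 0.30. Lower members were klf2a, a factor of quiescent endothelium and lymphocytes (-0.42 ± 0.19), maff (-0.34 ± 0.20) and nr4a1 (-0.27 ± 0.32). Of the SoxC factors linked to axon growth, sox11a was at -0.19 ± 0.19 and sox11b at -0.04 ± 0.17.

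**Figure D3:**
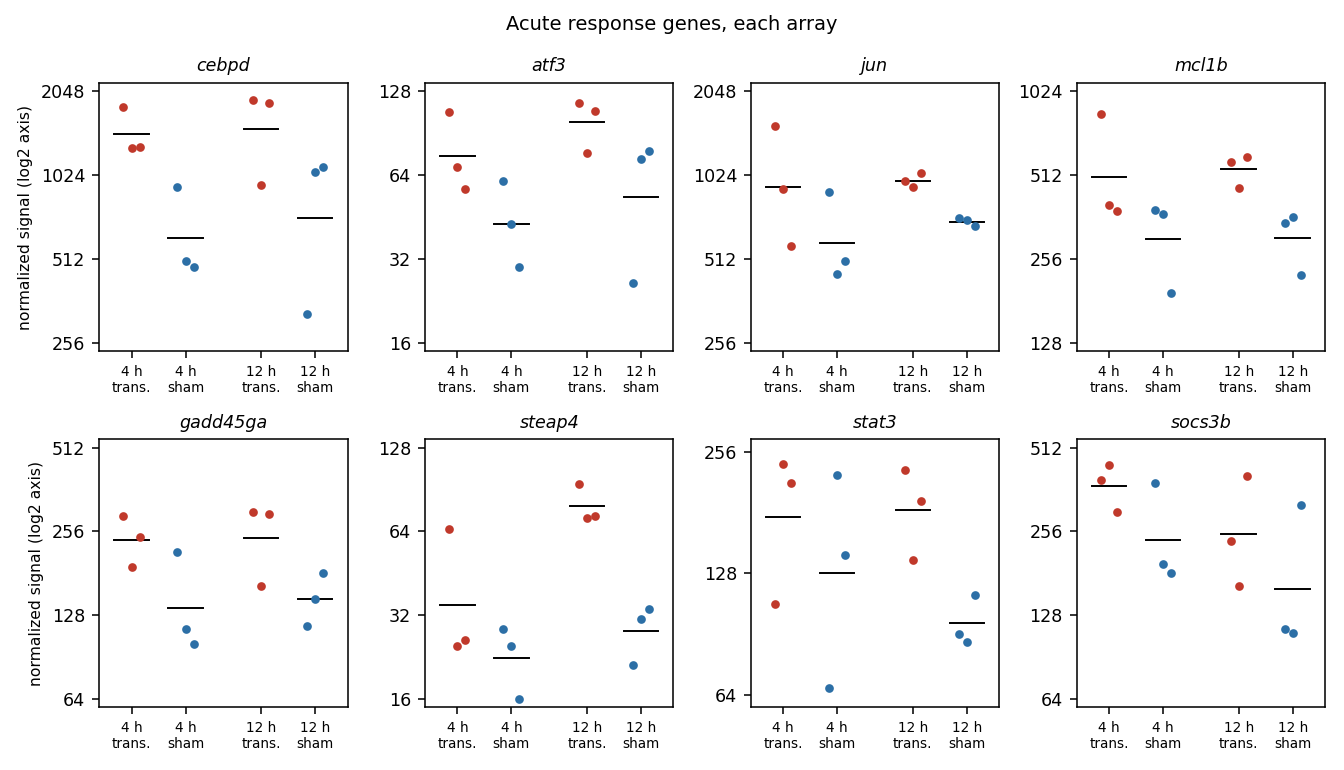
Normalized signal of 8 genes of the acute response, 1 point per array on a log2 axis, with transected (red) left of sham (blue) at each time and the geometric mean of 3 arrays as a line. Transected means lie above sham means in all 8 panels at both times, and the arrays of the 2 groups overlap at 1 or both times in each panel.

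Genes of cytokine, Jak-Stat and interferon signalling were higher in 15 of 22 and lower in 7, with a median of 0.17 that was 0.20 at 4 h and 0.18 at 12 h. This list had 12 members higher and 1 lower at both times, and 3 higher members at an unadjusted p under 0.05. The factor stat3, which carries signals of the interleukin 6 family to the nucleus, read 108, 239 and 214 in transected and 66.5, 224 and 142 in sham arrays at 4 h. At 12 h stat3 read 230.4, 138 and 193 in transected and 90.7, 86.6 and 113 in sham arrays. At 4 h the arrays of both groups ran over the same wide range, with the transected array higher in 3 of 3 pairs, and at 12 h all transected arrays were above all sham arrays (0.69 ± 0.29). Its feedback inhibitor socs3b had 391, 442 and 300.3 in transected and 381, 196 and 181 in sham arrays at 4 h. At 12 h socs3b read 238, 163 and 407 in transected and 114, 110.4 and 320.0 in sham arrays. Sham replicate 1 at 4 h and sham replicate 3 at 12 h lay within the transected range, and at 4 h the transected array was higher in 3 of 3 pairs (0.65 ± 0.31). The paralogue socs3a was at 0.33 ± 0.23, socs1a at 0.43 ± 0.23, and irak4, a kinase below Toll-like and interleukin 1 receptors, at 0.43 ± 0.14, with 0.12 at 4 h and 0.74 at 12 h. Among interferon-responsive proteasome subunits, psmb9a was at 0.51 ± 0.23 and psmb8a at 0.35 ± 0.21.

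Of 26 complement and acute phase genes on the array only 9 passed the filter, so most of this list was too dim to be tested. The 9 were the complement genes c7b, c6.2, cfi and cfd, the matrix protease and inhibitor genes mmp9, mmp13a, timp2a and timp2b, and hbegfa. Acute phase genes such as saa, hp and fgb were under the filter, so the median does not describe them. Of the 9, 7 were higher, with a median of 0.34 (0.34 at 4 h and 0.37 at 12 h). At 4 h 8 were higher and 1 lower, but at 12 h 5 were higher and 4 lower. Over the alternatives the 12 h median lay between 0.02 and 0.42. The complement component c7b read 466, 269 and 378 in transected and 264, 203 and 158 in sham arrays at 4 h. At 12 h c7b read 232, 151 and 518 in transected and 156, 161 and 211 in sham arrays. At 4 h the 2 groups were just separate and at 12 h transected replicate 2 lay below all sham arrays (0.71 ± 0.27). The list also holds the wound-induced growth factor gene hbegfa, at 0.50 ± 0.23, and mmp9, a matrix protease of leukocytes and injured tissue, at 0.48 ± 0.35. The serine protease cfd of the alternative complement pathway was lower (-0.54 ± 0.24). The metalloprotease inhibitor timp2b read 91.7, 88.3 and 93.8 in transected and 48.3, 19.98 and 37.1 in sham arrays at 4 h. At 12 h timp2b read 21.6, 36.2 and 51.9 in transected and 27.7, 45.9 and 46.1 in sham arrays. The groups were separate at 4 h and overlapped at 12 h, with effects of 1.47 at 4 h and -0.18 at 12 h (0.65 ± 0.25 pooled).

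Genes known to respond to glucocorticoids, the steroid hormones of the stress response, were on the higher side, 18 of 26 above 0, at a median of 0.19 (0.25 at 4 h and 0.10 at 12 h), and 4 higher and 0 lower members were at an unadjusted p under 0.05. One is cebpd, given above. The gene hsd11b2, whose enzyme inactivates cortisol, read 182, 107 and 115 in transected and 88.1, 63.4 and 40.5 in sham arrays at 4 h. At 12 h hsd11b2 read 108, 40.6 and 115 in transected and 27.1, 55.0 and 67.1 in sham arrays. It was separate at 4 h, and at 12 h transected replicate 2 fell within the sham range (0.94 ± 0.31). The stress gene gadd45ba had 596, 590.2 and 735 in transected and 369, 382 and 339 in sham arrays at 4 h. At 12 h gadd45ba read 298, 279 and 481 in transected and 184, 284 and 332 in sham arrays. At 4 h its transected arrays were all above the sham arrays, and at 12 h 2 of them were within the sham range (0.61 ± 0.19, and 0.56 ± 0.21 on a second probe set). Of other known targets of the glucocorticoid receptor, dusp1 was at 0.47 ± 0.23, klf9 at 0.43 ± 0.27, tsc22d3 at 0.19 ± 0.19, fkbp5 at 0.19 ± 0.19 and sgk1 at -0.10 ± 0.16. At 4 h and 12 h tsc22d3 was at 0.52 and -0.13, and fkbp5 at 0.34 and 0.04. Lower list members included dusp6 (-0.30 ± 0.16) and anxa1a (-0.29 ± 0.20). At 12 h the list was closer to balance, with 15 genes higher and 11 lower, and its 12 h median lay between -0.04 and 0.16 over the alternatives.

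In the list of p53, apoptosis and survival genes 21 of 34 were higher, with a median of 0.05 that was 0.11 at 4 h and -0.05 at 12 h. It had 3 higher and 0 lower members at an unadjusted p under 0.05. The survival gene mcl1b, a member of the Bcl-2 family that blocks cell death, read 849, 401 and 381 in transected and 384, 371 and 194 in sham arrays at 4 h. At 12 h mcl1b read 572, 461 and 593 in transected and 346, 362 and 224 in sham arrays. At 12 h the groups were separate, and at 4 h transected replicate 3 was just below sham replicate 1, while each transected array was above the sham array of its number (0.79 ± 0.24). Its paralogue mcl1a was at -0.11 ± 0.20, and the pro-apoptotic baxa at -0.14 ± 0.18. The growth arrest gene gadd45ga had 291, 191 and 244 in transected and 216, 114 and 101 in sham arrays at 4 h. At 12 h gadd45ga read 301, 162 and 295 in transected and 117, 147 and 181 in sham arrays. At both times transected replicate 2 was below the highest sham array, and the other transected arrays were above it, and at 4 h the transected array was higher in 3 of 3 pairs (0.78 ± 0.23). The p53 targets mdm2 (-0.09 ± 0.21) and ccng1 (-0.10 ± 0.14), picked by hand from the list, were near 0. Other members, gadd45ab among them, are not given here. The p53-binding protein gene tp53bp2a was at 0.70 ± 0.20 on 1 probe set (0.06 at 4 h and 1.35 at 12 h), and at 0.18 ± 0.23 and 0.08 ± 0.30 on 2 brighter ones.

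Among genes of redox, metal and iron handling 20 of 37 were higher and 17 lower (median 0.03), with 1 at an unadjusted p under 0.05 in each direction. The metalloreductase steap4, which reduces iron and copper and is induced by inflammation, read 65.5, 24.8 and 26.1 in transected and 28.6, 24.8 and 16 in sham arrays at 4 h. At 12 h steap4 read 94.4, 71.7 and 73.0 in transected and 21.2, 30.9 and 33.8 in sham arrays. At 4 h only transected replicate 1 stood out and sham replicate 3 was at the floor, while at 12 h all transected arrays were more than 2 times the highest sham array (1.06 ± 0.25, limma unadjusted p = 0.00089). The glutathione peroxidase gpx1a, which removes peroxides, had 757, 329 and 348 in transected and 677, 493 and 480.1 in sham arrays at 4 h. At 12 h gpx1a read 204, 315 and 315 in transected and 557, 803 and 684 in sham arrays. It was lower at 12 h without overlap, and at 4 h transected replicate 1 was the highest of the 6 arrays (-0.80 ± 0.22). The transected array was lower in 2 of 3 pairs at 4 h. Its paralogue gpx1b was at 0.14 ± 0.22, the peroxiredoxin prdx1 at -0.29 ± 0.26, the thioredoxin inhibitor txnipa at 0.35 ± 0.22, and the iron exporter slc40a1 at -0.26 ± 0.17.

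Of 35 genes of hypoxia and glycolysis 15 were higher and 20 lower, with a median of -0.02, and 3 higher members were at an unadjusted p under 0.05. The binding protein igfbp1a, which limits the action of insulin-like growth factors and is induced by hypoxia and fasting, read 589, 342 and 605 in transected and 328, 389 and 322 in sham arrays at 4 h. At 12 h igfbp1a read 898, 596 and 561 in transected and 429.6, 328 and 495 in sham arrays. Only transected replicate 2 at 4 h fell within the sham range (0.61 ± 0.19, and 0.50 ± 0.23 on a second probe set). The transected array was higher in 2 of 3 pairs at 4 h. The glycolysis regulator pfkfb4b read 425, 300.3 and 284 in transected and 239.9, 86.5 and 177 in sham arrays at 4 h. At 12 h pfkfb4b read 223, 278 and 149 in transected and 166, 217 and 216 in sham arrays. It was separate at 4 h (1.101) and overlapped at 12 h (0.08). The third of these genes was hif1al, named for its likeness to the alpha subunit of hypoxia-inducible factor (0.44 ± 0.18), followed by the pyruvate dehydrogenase kinase pdk2b (0.55 ± 0.27). The liver-type glycogen phosphorylase pygl, which frees glucose from glycogen, is not on this list. It had 205, 166 and 163 in transected and 94.7, 104 and 45.9 in sham arrays at 4 h. At 12 h pygl read 109, 85.6 and 144 in transected and 125, 37.3 and 59.2 in sham arrays. The groups were separate at 4 h and overlapped at 12 h (0.98 ± 0.29). A second pygl probe set was at 1.04 ± 0.44, from 4 h alone (2.19 at 4 h and -0.11 at 12 h). The 80 genes of oxidative phosphorylation had a median of -0.01, with 37 higher and 43 lower, and those of smallest p were the complex I gene ndufa11 (-0.25 ± 0.14), the succinate dehydrogenase genes sdhaf2 (-0.39 ± 0.23) and sdhdb (-0.31 ± 0.21), and cox4i1l of complex IV (-0.29 ± 0.22).

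Cytosolic ribosomal protein genes leaned to one side by small amounts: 57 of 72 were higher and 15 lower, 42 higher and 6 lower at both times, and the median was 0.11 (0.11 at 4 h and 0.10 at 12 h), against 0.0045 over the 5753 genes. The pooled differences ran from -0.15 for rps23 to 0.52 for rps26l, and 2 members were at an unadjusted p under 0.05. The gene rps26l, a paralogue of rps26, read 2475, 1802 and 1623 in transected and 1396, 1348 and 1714 in sham arrays at 4 h. At 12 h rps26l read 3236, 3172 and 2801 in transected and 1811, 2699.9 and 1543 in sham arrays. Transected arrays were higher at 12 h without overlap (0.52 ± 0.17). At 4 h transected replicate 3 was below sham replicate 3, and the transected array was higher in 2 of 3 pairs. For rpl38 the values were 4170.0, 3148 and 3778 in transected and 1978, 2655 and 3349 in sham arrays at 4 h, and 3726, 3336 and 3312 in transected and 2808, 3069.8 and 3128 in sham arrays at 12 h, with the larger difference at 4 h and narrow separation at 12 h (0.35 ± 0.16). Next by p were rpl31 (0.35 ± 0.17) and rps10 (0.26 ± 0.14). The pooled median kept its sign in all 28 alternatives (0.08 to 0.14), while the 4 h median reached -0.01 at its lowest and the 12 h median 0.05. Proteasome subunits, another large complex, were split 19 higher to 21 lower with a median of -0.02. Their members of smallest p were psmd10 (0.32 ± 0.17), psma2a (-0.33 ± 0.19), psmc1b (-0.25 ± 0.14, and 0.04 ± 0.16 on a second probe set) and the proteasome inhibitor psmf1 (0.44 ± 0.26, and 0.0043 on a second probe set).

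Genes of axon growth and the growth cone were split: 31 of 54 were higher and 23 lower, with a median of 0.01, and 3 stood at an unadjusted p under 0.05 in each direction. The growth-associated protein gap43, a standard marker of axon regrowth, read 982, 1817 and 2087 in transected and 957, 1858 and 1783 in sham arrays at 4 h. At 12 h gap43 read 1858, 2083 and 1984 in transected and 1926, 1575 and 1984 in sham arrays. Arrays of both groups overlapped at each time (0.10 ± 0.22, turning to -0.06 without sham replicate 1 and to -0.01 without transected replicate 3 at 4 h). At 4 h the transected array was higher in 2 of 3 pairs. The alpha-tubulin gene tuba8l3 had 1571, 1481 and 2070.3 in transected and 2639, 1968 and 3236 in sham arrays at 4 h. At 12 h tuba8l3 read 873, 1534 and 1058 in transected and 2647, 1722 and 3324 in sham arrays. At 4 h only transected replicate 3 reached above the lowest sham array and the transected array was lower in 3 of 3 pairs, and at 12 h the groups were separate (-0.87 ± 0.21). The beta-tubulin tubb5 was lower too (-0.53 ± 0.24), while tuba1b (0.46 ± 0.23) and tuba5 (0.35 ± 0.16) were on the higher side and tuba2 was at -0.55 ± 0.18 on 1 probe set and 0.03 ± 0.16 on a brighter one. The actin crosslinker flna was at 0.35 ± 0.14 and the vault protein mvp at 0.42 ± 0.17, and scinla, of the actin-severing scinderin family and on no list, was at -0.82 ± 0.22.

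Neuronal genes were mostly on the lower side. Of 18 genes of the sodium pump and neuronal excitability 14 were lower (median -0.21, with -0.27 at 4 h and -0.10 at 12 h). Of 23 genes of synaptic vesicles and release 20 were lower (median -0.12, with -0.15 at 4 h and -0.06 at 12 h), and of 16 neuron markers 13 (median -0.12, with -0.17 at 4 h and -0.02 at 12 h), and 8 of the neuron markers are also on 1 of the other lists. The only member at an unadjusted p under 0.05 went the other way. It was slc18a3a, the vesicular acetylcholine transporter, a marker of cholinergic terminals, which read 445, 277 and 369.8 in transected and 431, 227 and 328 in sham arrays at 4 h. At 12 h slc18a3a read 454, 725 and 586 in transected and 332, 384 and 348 in sham arrays. Its arrays overlapped at 4 h and were separate at 12 h (0.44 ± 0.19). The neuronal sodium pump subunit atp1a3a had 1049, 2573 and 2159 in transected and 1937, 4461 and 2253 in sham arrays at 4 h. At 12 h atp1a3a read 1937, 1493 and 1868 in transected and 2036, 1772 and 1485 in sham arrays. Transected replicate 1 and sham replicate 2 at 4 h were the lowest and the highest of the 12 arrays, and at 4 h the transected array was lower in 3 of 3 pairs (-0.29 ± 0.25, with -0.58 at 4 h and 0.0041 at 12 h). Subunits atp1b2a (-0.30 ± 0.19) and atp1a3b (-0.15 ± 0.17) and the glycine receptor subunit glra4a (-0.28 ± 0.17) were lower as well, the last at 0.03 ± 0.24 on a second probe set. The glutamate receptor subunits grin1a (-0.42 ± 0.26) and gria2a (-0.30 ± 0.25), the GABA-synthesis gene gad1b (-0.22 ± 0.16) and the release gene snap25b (-0.20 ± 0.16) were lower, as was sh3gl2a, of the endophilin family that recycles vesicles (-0.24 ± 0.15). These differences were at most 2 times their errors. Without transected replicate 1 at 4 h the medians were -0.09 for the sodium pump list, -0.03 for the synaptic list and -0.00072 for the neuron markers. Without sham replicate 2 at 4 h the sodium pump median was also -0.09.

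Red cell genes were lower in 12 of 12 measured members, with a median of -0.25 that was -0.18 at 4 h and -0.50 at 12 h, and 2 were at an unadjusted p under 0.05. The list has 18 genes on the array, and 6 did not pass the filter. The summed signal of all 18 ranged from 7826 to 15269 in transected and from 10233 to 15918 in sham arrays at 4 h, and from 8137 to 10619 in transected and from 9560 to 13352 in sham arrays at 12 h, so the groups overlapped at both times. The gene nt5c2l1, a nucleotidase on the red cell list, read 325, 158 and 136 in transected and 214, 183 and 274 in sham arrays at 4 h. At 12 h nt5c2l1 read 61.7, 90.8 and 89.6 in transected and 152, 124 and 143 in sham arrays. At 12 h its groups were separate, and at 4 h transected replicate 1 was the highest array (-0.51 ± 0.22). The transected array was lower in 2 of 3 pairs at 4 h. The heme synthesis gene alas2 was at -0.37 ± 0.21, the globins hbaa1, hbba2 and hbbe2 at -0.31 ± 0.23, -0.28 ± 0.40 and -0.49 ± 0.21, and the carbonic anhydrase cahz at -0.27 ± 0.18. At 4 h 4 of the 12 were higher, and at 12 h 0 of 12. Red cell genes mark blood in the tissue, and its part in the other results was not tested.

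Other cell type markers had pooled medians near 0. Microglia and leukocyte genes were higher in 11 and lower in 12 of 23 (median -0.0049), astroglial and radial glial genes in 7 and 7 of 14 (-0.0026), oligodendrocyte genes in 4 and 4 of 8 (-0.02), and endothelial and mural genes in 5 and 5 of 10 (0.0028). The endothelial list had 7 of 10 higher at 4 h (median 0.22, between 0.12 and 0.27 over the alternatives) and 5 of 10 at 12 h (0.0083). Among them apoeb, an apolipoprotein of microglia and glia, was at 0.38 ± 0.19, the leukocyte actin-bundling gene lcp1 at -0.32 ± 0.18, the glial filament gfap at 0.25 ± 0.20, and glulb, a glutamine synthetase of astroglia, at 0.39 ± 0.19 (0.60 ± 0.31 on a second probe set). The aromatase gene cyp19a1b of radial glia was at -0.49 ± 0.31 (-0.15 ± 0.30 on a second probe set), and the myelin gene mbpb at 0.27 ± 0.21. The lymphatic receptor gene flt4, the 1 endothelial member at an unadjusted p under 0.05, read 21.7, 26.1 and 22.8 in transected and 20.6, 16.2 and 24.4 in sham arrays at 4 h. At 12 h flt4 read 87.0, 69.7 and 58.8 in transected and 55.4, 34.8 and 27.2 in sham arrays. Its difference was larger at 12 h (0.92) than at 4 h (0.22).

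**Figure D4:**
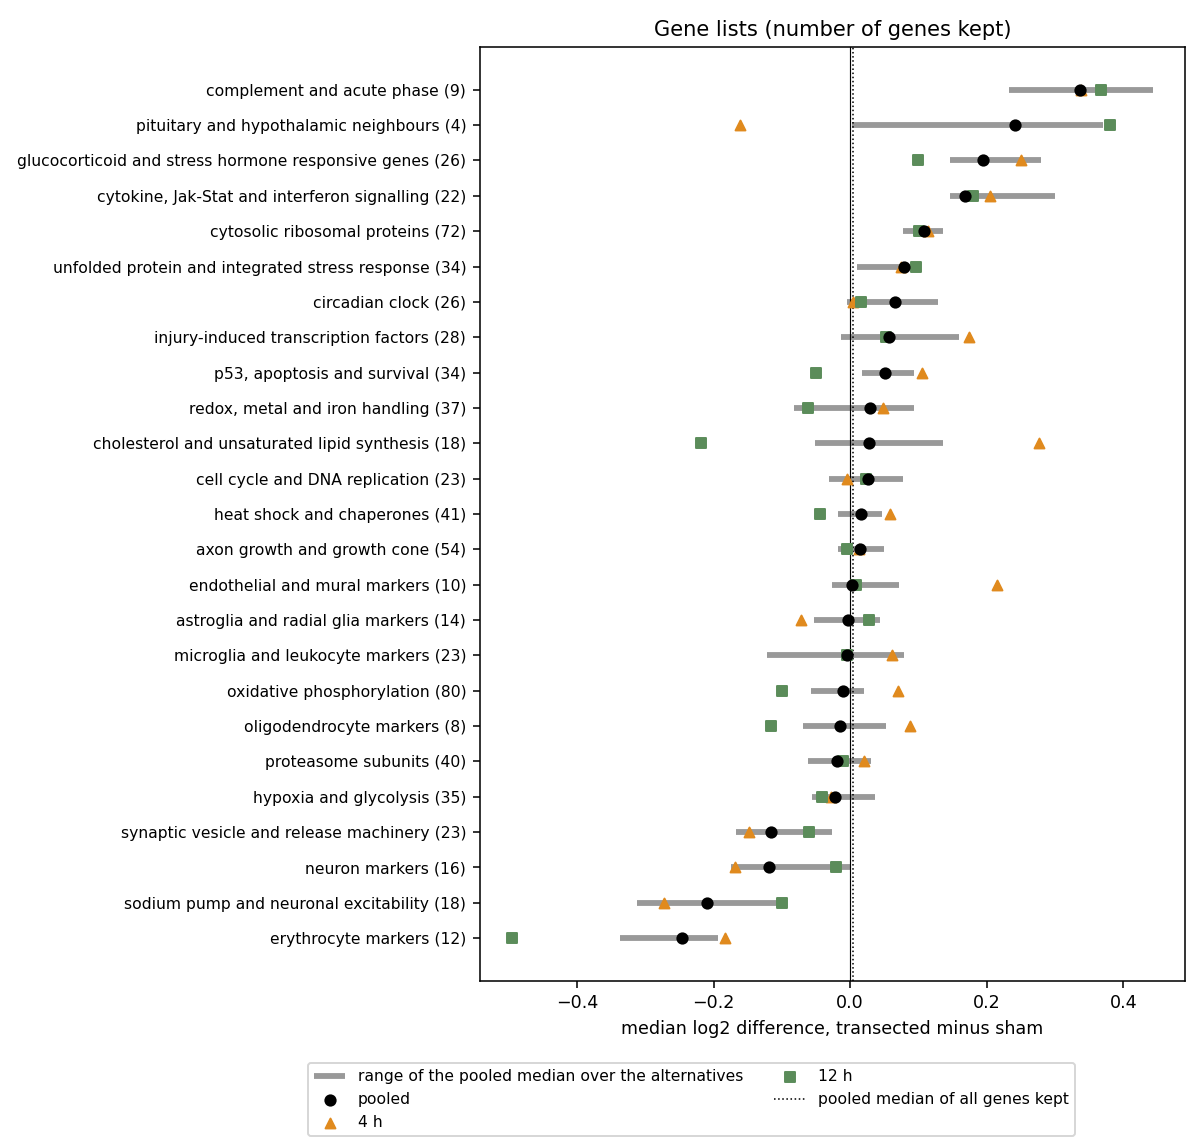
Median log2 difference, transected minus sham, of the genes of each list that passed the filter (number in brackets), pooled (circles), at 4 h (triangles) and at 12 h (squares), with grey bars for the range of the pooled median over the alternative settings. The pooled medians of the complement and acute phase, hypothalamic and pituitary, glucocorticoid-responsive, cytokine and ribosomal lists lie right of that of all genes (0.0045, dotted). The hypothalamic and pituitary list rests on 4 genes, and its bar reaches down to 0.0022. Sodium pump, synaptic, neuron marker and red cell lists lie left of the dotted line. Cholesterol synthesis has its 4 h and 12 h medians on opposite sides (0.28 and -0.22).

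Genes of cholesterol and unsaturated lipid synthesis had opposite signs at the 2 times in 12 of 18 cases. At 4 h 15 of 18 were higher (median 0.28) and at 12 h 13 of 18 were lower (median -0.22), so that the pooled median was 0.03. Over 27 alternatives the 4 h median stayed between 0.17 and 0.42 and the 12 h median between -0.44 and -0.07. The mevalonate kinase gene mvk had 86.3, 59.4 and 44.3 in transected and 53.2, 27.3 and 22.02 in sham arrays at 4 h. At 12 h mvk read 20.01, 20.5 and 35.0 in transected and 27.1, 28.0 and 29.3 in sham arrays. At 4 h only transected replicate 3 was within the sham range and the transected array was higher in 3 of 3 pairs, and at 12 h transected arrays were on both sides of the sham arrays (0.94 at 4 h, -0.21 at 12 h). The other large swings, named after their values were seen, were those of nsdhl (0.77 at 4 h and -0.72 at 12 h) and cyp51 (0.40 and -1.32), both enzymes of the late pathway, of hmgcs1 (0.79 and -0.23), an early enzyme, and of insig1 (0.64 and -0.18), which restrains the pathway. The reductase gene dhcr7, of the last steps, was lower at both times (-0.09 and -0.66). Oxidative phosphorylation genes had the same signs with smaller medians: 56 of 80 were higher at 4 h and 56 lower at 12 h (medians of 0.07 and -0.10, with a 4 h median of -0.02 on the deposited scale), against medians of 0.03 and -0.04 over the 5753 genes, which lean the same way.

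Clock genes were spread widely at both times. Of 26, 17 were higher and 9 lower in the pooled effect (median 0.07), and 16 had opposite signs at the 2 times. The light-induced per2, named after its values were seen, was at 0.98 at 4 h and -1.05 at 12 h. The core activator bmal1a read 188, 281 and 330.2 in transected and 133, 472 and 285 in sham arrays at 4 h, and 16.4, 65.1 and 71.7 in transected and 61.9, 104 and 119 in sham arrays at 12 h, and its lowest array by far was transected replicate 1 at 12 h (-0.56 ± 0.38). The labels give no times of day for the surgeries and dissections, and their part in these values was not tested.

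Single genes with the most unequal effects were picked by the smallest p in the test of the difference, which no probe set passed (limma smallest adjusted p = 0.998). The volume-regulated anion channel subunit lrrc8aa read 75.4, 118 and 100.5 in transected and 64.7, 73.0 and 67.6 in sham arrays at 4 h. At 12 h lrrc8aa read 69.5, 43.5 and 37.4 in transected and 127, 85.1 and 165 in sham arrays. It was higher at 4 h and lower at 12 h, both without overlap, and the 12 h effect minus the 4 h effect was -1.82 ± 0.41 (limma unadjusted p = 0.00062). The DNA repair polymerase gene poll had 259.6, 284 and 261 in transected and 212, 233 and 233 in sham arrays at 4 h. At 12 h poll read 107, 134 and 135 in transected and 284, 205 and 223 in sham arrays. The reversal was again without overlap at either time (-1.16 ± 0.28). The fibrillar collagen gene col5a2a was dim, with 43.4, 52.0 and 44.1 in transected and 38.8, 38.4 and 36.4 in sham arrays at 4 h, and 18.3, 16.98 and 19.6 in transected and 25.5, 48.6 and 43.9 in sham arrays at 12 h, and was also separate in opposite directions at the 2 times (-1.35 ± 0.34). Further genes with a higher effect at 4 h were cln6a, a protein of the endoplasmic reticulum needed by lysosomes (-1.40 ± 0.37), the F-box gene fbxw2 (-1.38 ± 0.38, with 12 h effects of -0.52 and 0.43 on 2 other probe sets) and gtpbp1, a GTP-binding protein (-1.17 ± 0.32).

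In the other direction, riok1, a kinase that matures the small ribosomal subunit, read 65.7, 89.8 and 92.1 in transected and 66.6, 109 and 94.5 in sham arrays at 4 h. At 12 h riok1 read 214, 239 and 169.8 in transected and 86.7, 92.5 and 98.3 in sham arrays. The groups overlapped at 4 h, and at 12 h the lowest transected array, 169.8, was clear of the highest sham array, 98.3 (1.26 ± 0.34). The gene psme3ip1, whose product binds the proteasome activator Psme3, had 835, 919.6 and 1065 in transected and 764, 921 and 1091 in sham arrays at 4 h. At 12 h psme3ip1 read 4652, 5220.1 and 3635 in transected and 2143, 1598 and 2009 in sham arrays. Both groups were higher at 12 h than at 4 h, the transected arrays by more (1.197 ± 0.32), but 3 other probe sets of the gene had 12 h effects of 0.92, 0.08 and -0.16. The nuclear pore gene aaas was similar (-0.17 at 4 h and 0.90 at 12 h), again not on its second probe set (-0.09 at 12 h). The muscle filament gene desmb was lower at 4 h and higher at 12 h, both without overlap (1.41 ± 0.37), as was ogt.1, which attaches N-acetylglucosamine to proteins (1.07 ± 0.28, with 12 h effects of 0.11 to 0.67 on 3 other probe sets). The gene zyg11l overlapped at 4 h and was higher at 12 h (1.30 ± 0.36).

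**Figure D5:**
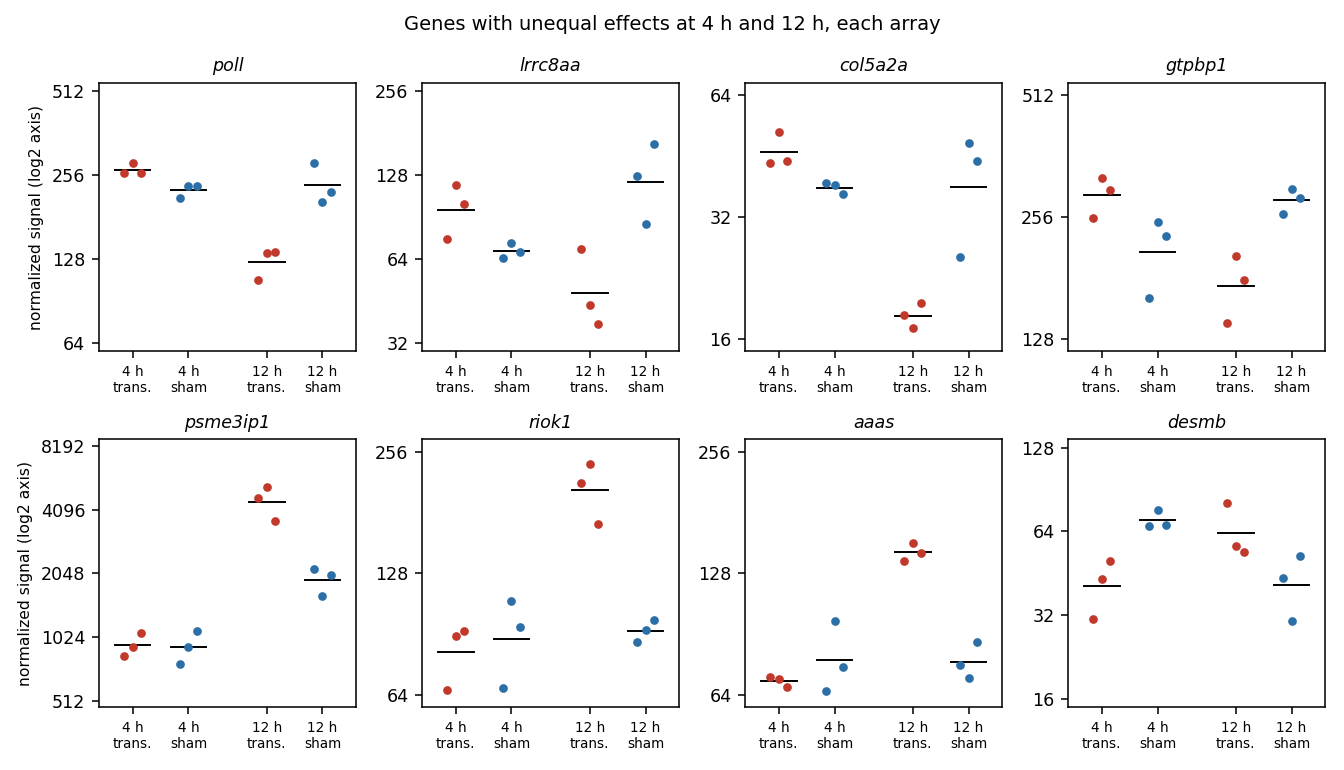
Normalized signal of 8 genes whose effects were most unequal between the times, 1 point per array on a log2 axis, with transected (red) left of sham (blue) at each time and the geometric mean of 3 arrays as a line. In the upper row transected arrays tend to be higher at 4 h and lower at 12 h, and in the lower row the reverse or a difference at 12 h alone, as in riok1.

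Genes of the unfolded protein and integrated stress response were higher in 23 of 34 (median 0.08). Signs were opposite at the 2 times in 22 of the 34, against 2941 of the 5753 genes. At both times 9 were higher and 3 lower. The list was led by phgdh, the first enzyme of serine synthesis, with 344, 221 and 256 in transected and 197, 239 and 199 in sham arrays at 4 h. At 12 h phgdh read 185, 230.2 and 219 in transected and 143, 139.9 and 154 in sham arrays. Transected replicate 2 at 4 h was the only one within the sham range (0.44 ± 0.15), and the transected array was higher in 2 of 3 pairs at 4 h. Cell cycle genes passed the filter in 23 of 71 cases, with 15 higher and 8 lower. The primase subunit prim1 (-0.70 ± 0.23) and the ribonucleotide reductase subunit rrm1 (-0.57 ± 0.22) were lower and the replicative helicase subunit mcm7 (0.38 ± 0.15) higher. Of 12 genes listed as possible markers of hypothalamic and pituitary tissue near the dissection, 4 passed the filter and 5 were at the floor on all 12 arrays. Of these 4, sst1.1 (0.41 ± 0.29), tph2 (0.36 ± 0.41) and npy (0.12 ± 0.23) were higher and avp was lower (-0.27 ± 0.16), with a median of 0.24 (-0.16 at 4 h and 0.38 at 12 h). The pooled median lay between 0.0022 and 0.37 over the alternatives, and npy is also on the axon growth list. The summed signal of the 12 ranged from 547 to 692 in transected and from 509 to 881 in sham arrays at 4 h, and from 639.8 to 1099 in transected and from 505 to 697 in sham arrays at 12 h, and its part in the other results was not tested.

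The gene cdk5rap2, which anchors microtubules at the centrosome, was under the filter on low signal, with a mean log2 signal of 4.37. At 12 h it read 46.2, 42.1 and 40.3 in transected arrays, while 3 of 3 sham arrays were at the floor of 16, and at 4 h it read 16, 18.5 and 16 in transected arrays, against 16 in all sham arrays. With no filter it was the only call of the pooled effect (log2 difference 0.75 counted from the floor, limma adjusted p = 0.00145), and the value came from 12 h alone (1.42 at 12 h and 0.07 at 4 h).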

How the data were processed

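Each of 18 arrays carried laser-captured NMLF tissue, and the 12 arrays at 4 h and 12 h were analysed here. Per the labels' protocols, RNA was purified with the RNeasy Micro kit, amplified with RampUP and labelled as biotinylated cDNA by standard Affymetrix steps. The authors deposited 1 intensity per probe set on a linear scale. No label or file header names the program that summarised the probes. On 10 of the 12 arrays the deposited intensities shared a trimmed mean, so they had been scaled per array.

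Intensities of the 12 arrays were quantile normalized, set to at least 16 and put on a log2 scale, and probe sets with a mean log2 signal above 5 were kept (8824 of 15502 without the 115 controls). Limma 3.58.1 in R 4.3.3 fitted 4 group means. The pooled effect is the mean of the 2 transected-minus-sham differences, and the change between times is the 12 h difference minus the 4 h difference. P-values were adjusted by Benjamini-Hochberg over all 8824. Same-numbered transected and sham arrays correlated in their deviations from group means at 0.65, 0.42 and 0.28 at 4 h, and at 0.12, -0.03 and 0.14 at 12 h. The numbers were therefore taken as pairs at 4 h, from the data and not from the labels, and not at 12 h, and a fit with the block is given beside the fit without it. The fit was tested on simulated data. The number of arrays limits the precision.

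Symbols came from the platform annotation, updated by gene number to the RefSeq table of GRCz12tu: 10795 probe sets had 1 symbol, 135 several and 4572 none, and 8723 of 8793 genes were found in that table. The brightest probe set stands for a gene in a list. By rule, genes were named as the 12 of smallest p each way and up to 10 each way without overlap at both times. The rule also took 6 each way for the difference between times, 4 of each list, and a few set by name. Not all of these genes are given in the text. The list of heat shock and chaperone genes (23 of 41 higher, pooled median 0.02) is left out. Members of other lists, such as nr1d2a, g3bp1 and nkx2.2a, are left out as well. Further genes, mostly list members, are given outside this rule, and not all of them are marked in the text. The members, gene lists and rules were chosen with earlier results of these data known. Alternatives changed the filter, the floor, the normalization, the model and the arrays used. Promoter motifs were not searched, since no promoter sequences were used here.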

Additional observations from a re-analysis of the deposited data

Results flagged for a closer look

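At 11 d, whose arrays the early comparison does not use, 4 genes described above were at an adjusted p under 0.05. The test was a limma fit of all 18 arrays with Benjamini-Hochberg adjusted p. Of the 11 d arrays 2 stand apart from the others, and their part in these values was not tested. Only named genes of the early comparison were looked up. The share of all probe sets called at 11 d is not given here, so the 4 cannot be set against it. The Jak-Stat inhibitor socs3b had geometric means of 740.2 in transected and 133 in sham arrays at 11 d, a log2 difference of 2.47 (adjusted p = 0.022). The growth factor gene hbegfa had 142 in transected and 40.3 in sham arrays, a difference of 1.82 (adjusted p = 0.016). The radial glial aromatase cyp19a1b had 31.6 in transected and 394.5 in sham arrays, a difference of -3.64 (adjusted p = 0.0012). The red cell gene alas2 had 45.3 in transected and 222 in sham arrays, a difference of -2.29 (adjusted p = 0.0078). Whether these differ from the early effects was not tested.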

How the results depend on the processing

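The count of 0 calls in the pooled effect held in 27 of 28 alternatives. With no filter on dim probe sets limma called 1, cdk5rap2, in the pooled effect, 1 in the difference between times and 1 at 12 h, and with probe sets above the floor on at least 3 arrays it called 2 at 12 h, cdk5rap2 and runx2b, of which cdk5rap2 was above the floor on its 3 transected arrays at 12 h and 1 at 4 h while its sham arrays, all at the floor, had no spread. At 4 h a floor of 32 gave 1 call, foxg1b (0.82 ± 0.08, SE), against a median standard error of 0.27 at 4 h in the main fit. The replicate block at 4 h alone, chosen after seeing the data, gave 0 calls in each contrast. With the replicate block at both times 0 probe sets were called in each contrast (637 at an unadjusted p under 0.05 in the pooled effect), and the replicate block with no filter on dim probe sets gave 1 call at 4 h and 1 in the difference between times, both mhc1zba. Its 4 h difference there was 0.71 ± 0.018 (SE). The calls of foxg1b and mhc1zba thus rest on very small standard errors, and how near the floor their arrays lay is not given here. The 33 probe sets without overlap at both times became 18 with arrays scaled to a common median and 8 on the deposited scale (3 higher and 5 lower). Leaving out arrays raises this count by construction: to between 48 and 107 without 1 array, 126 without both replicate 3 arrays at 4 h, and 146 without both replicate 1 arrays at 4 h, an alternative chosen after seeing the data. The GAPDH ratio difference lay between 0.053 and 0.28 without 1 array and was past the threshold without sham replicate 3 at 12 h (0.28, exact permutation p = 0.025). Of 2625 values of 95 gene results under the alternatives 2623 kept both their sign and their side of the threshold, and 2 of gap43 changed sign (-0.058 and -0.0095, with a range of -0.058 to 0.26 without 1 array). Most of these genes were named for a small p or for separation in the same arrays, and all were far from the threshold. That agreement was therefore largely fixed in advance. The gene cdk5rap2, called with no filter, is not among the 95. Of 25 lists, 11 kept the sign of their pooled median throughout and 14 did not.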

Other observations

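Some genes of the early comparison were also higher in the transected arrays at 11 d, without passing the test. The limits on the 11 d arrays given above hold here as well. In the limma fit of all 18 arrays, steap4 had geometric means of 133 in transected and 32.8 in sham arrays at 11 d (log2 difference 2.02 ± 0.39, SE, adjusted p = 0.061), and nob1 had 721 in transected and 287 in sham arrays (1.33 ± 0.40, adjusted p = 0.54). For cebpd the values were 1124 in transected and 403 in sham arrays (1.48 ± 0.43, adjusted p = 0.48). In the same limma fit atf3 was at 1.98 ± 0.45 (adjusted p = 0.13), stat3 at 1.55 ± 0.50 (0.66) and gap43 at 1.28 ± 0.29 (0.13). The gene scinla, lower in the early effect, was higher at 11 d (1.19 ± 0.33, adjusted p = 0.38). The red cell gene nt5c2l1 was lower (-1.49 ± 0.29, adjusted p = 0.064). Others had small differences at 11 d, such as phf10 (0.17 ± 0.35), pygl (-0.18 ± 0.50) and tgfbr2b (-0.40 ± 0.23).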
